A study of Homo sapiens with 6 samples.

Results

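Long noncoding transcripts that carry the symbols LINC (long intergenic noncoding RNA), SNHG (small nucleolar RNA host gene) or MIR...HG (microRNA host gene) were compared between glioma cells that received a decoy for miR-10b and cells that received a control decoy. A transcript was taken where a probe set carried that symbol alone in the platform annotation, the brightest such probe set stood for the symbol, and its deposited signal averaged 50 or more over the 6 arrays. By this rule 99 of the 19775 genes with a probe set of their own were taken, made up of 7 SNHG, 11 microRNA host and 81 LINC transcripts. They came from 887 symbols with a matching name, so that 788 were left out for a lower signal. Another 106 probe sets carried a matching name beside other symbols, an SNHG name in 31 of them, and were not taken whatever their signal. The 7 SNHG transcripts are therefore those with a probe set of their own. The transcripts were chosen by their deposited signal, whose values are therefore given as a description. Of the 99, 5 reached the level only through their miR-10b decoy arrays and 10 only through their control arrays, which fixed their direction on the deposited scale. Among these LINC00304, LINC03024, LINC00963 and LINC00260 passed the test as higher and LINC00663, MIR924HG and LINC02984 as lower, and their p-values are given with that limit. MIR3945HG and SNHG28 were also among these and did not pass.

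SNHG transcripts are spliced RNAs whose introns hold small nucleolar RNAs (snoRNAs), which guide the chemical modification of ribosomal and other RNAs. MicroRNA host transcripts hold microRNA hairpins, which are cut from the primary transcript in the nucleus. LINC symbols are given by position between protein-coding genes, and for most of them no function is part of the name. A microRNA represses the transcripts it pairs with mainly through its seed, the bases near its 5′ end, and a decoy is a transcript built to hold a microRNA away from its targets.

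The cells were U87-2M1, an invasive subline of the human U87 glioma line that came from a lung metastasis assay in vivo and was then grown in vitro. Per the labels, all samples were passage 4 cells kept in hypoxia, so that low oxygen was shared by both groups. One group of 3 samples (control decoy) received a baculoviral vector with a control decoy, and the other 3 samples (miR-10b decoy) received a baculoviral vector with a miR-10b decoy, a baculovirus being an insect virus used to carry genes into mammalian cells. All cells came from a single subline. Whether the replicates were grown apart is not stated in the labels, and the spread behind the p-values may therefore be technical.

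Each sample was read on 1 array. In the deposited signals control replicate 3 was brighter (trimmed mean 192, against 155 to 163 on the other 5 arrays), so the values below are signals after quantile normalization over all 6 arrays, and every difference is the log2 difference of signal + 7, miR-10b decoy minus control decoy. On this scale arrays of 1 group correlated at 0.985 to 0.987 and arrays of different groups at 0.967 to 0.973. Of 7 glial and glioma markers 4 had a mean above the filter level of 15.6 (VIM, CD44, NES and SOX2), and GFAP and S100B were under it on all arrays. OLIG2 was at 0.80 to 7.75 with the control decoy and at 19.6 to 29.8 with the miR-10b decoy, and NES was at 449 to 511 and 330.1 to 411. The sum of the 7, which was mostly VIM and CD44, was 17611 to 18096 and 17664 to 18034. Leukocyte markers summed to 18.3 to 40.8 and 17.0 to 30.2, with 1 of 3 above the filter level, epithelial markers to 97.2 to 99.96 and 96.3 to 109 (2 of 4), and lung epithelium markers to 147 to 186 and 104 to 164 (2 of 3). Fibroblast markers (4 of 4 above the filter level) summed to 7572 to 8120 and to a lower 5353 to 5751 with the miR-10b decoy, mostly through COL1A2 (4960 and 2866 at the mean), while DCN was higher (35.7 to 52.2 and 83.7 to 93.6) and PDGFRB overlapped (119 to 152 and 144 to 160.4). Endothelial markers (1 of 3) summed to 141 to 164 and 112 to 118. The 3′ to 5′ signal ratio of actin, a sign of RNA integrity, was 5.73 ± 0.47 and 8.54 ± 1.77 (SD, n = 3 each), and that of GAPDH was 0.945 ± 0.019 and 0.943 ± 0.007 (SD, n = 3 each). The part of these differences in the results below was not tested, and in bulk RNA fewer cells of a type and less RNA per cell cannot be told apart.

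The microRNAs inside the host transcripts are shown first because miR-100 and miR-99a are known relatives of the miR-10 family, at which the decoy was aimed. All sequences are from RefSeq (GRCh38.p14), with bases 2 to 8, the seed, in capitals. The arrays measured the long host transcripts and not the mature microRNAs. miR-10b itself is not shown, and its sister miR-10a-5p stands for the family (chr17:48579904-48579926, minus strand), and is no product of a transcript described here. Within MIR100HG lie miR-100-5p (chr11:122152275-122152296, minus strand) and miR-125b-5p (chr11:122099809-122099830, minus strand), and within MIR99AHG lies miR-99a-5p (chr21:16539101-16539122, plus strand).
hsa-miR-10a-5p: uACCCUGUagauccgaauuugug
hsa-miR-100-5p: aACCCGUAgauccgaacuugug
hsa-miR-99a-5p: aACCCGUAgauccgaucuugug
hsa-miR-125b-5p: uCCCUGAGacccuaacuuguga
The seed of miR-100-5p and miR-99a-5p is the same and differs from that of miR-10a-5p. A second group shares the seed GAGGUAG. It is made up of let-7a-5p, which has a copy in MIR100HG (chr11:122146568-122146589, minus strand) and another in MIRLET7BHG, of let-7b-5p in MIRLET7BHG (chr22:46113691-46113712, plus strand) and of let-7c-5p in MIR99AHG (chr21:16539838-16539859, plus strand).
hsa-let-7a-5p: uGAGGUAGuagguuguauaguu
hsa-let-7b-5p: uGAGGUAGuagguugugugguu
hsa-let-7c-5p: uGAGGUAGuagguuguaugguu
From the other host transcripts that passed the test, miR-210-3p (MIR210HG, chr11:568112-568133, minus strand), miR-1915-3p (MIR1915HG, chr10:21496576-21496595, minus strand), miR-924 (MIR924HG, chr18:39622153-39622172, minus strand) and miR-3681-5p (MIR3681HG, chr2:12199138-12199159, plus strand) have seeds that differ from all of these and from each other.
hsa-miR-210-3p: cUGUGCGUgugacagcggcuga
hsa-miR-1915-3p: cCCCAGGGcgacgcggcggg
hsa-miR-924: aGAGUCUUgugaugucuugc
hsa-miR-3681-5p: uAGUGGAUgaugcacucugugc

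Of the 99 transcripts, 17 were higher and 15 were lower with the miR-10b decoy, and 67 did not pass the test (limma, Benjamini-Hochberg adjustment over 13842 genes, threshold 0.05). The share called was 32.3%, beside 33.9% of all genes tested. In each direction it was 17.2% higher and 15.2% lower, beside 16.6% and 17.3% of all genes, and the median difference was 0.01 beside -0.02. Calls among these transcripts were thus about as frequent as in the whole table. Among the 10500 other genes with a mean signal of 50 or more, 41.7% were called. A rise of at least 2-fold that passed the test was seen for 4 transcripts (1.88% of all genes) and a fall of that size for 0 (0.867% of all genes). Since 2 of the 4, LINC00304 and LINC03024, reached the signal of 50 only through the miR-10b decoy arrays, that count cannot be read against the share of all genes. Of the 84 transcripts at 50 or more in both groups 13 were higher and 12 lower, and 2 of the rises were at least 2-fold. The median fold of the 17 rises was 1.57, and that of the 15 falls was 1.49. On the deposited values the split was 11 higher and 20 lower, with the median of all genes at -0.14, and with arrays centred on their medians it was 25 higher and 11 lower, with that median at 0.03.

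**Figure D1:**
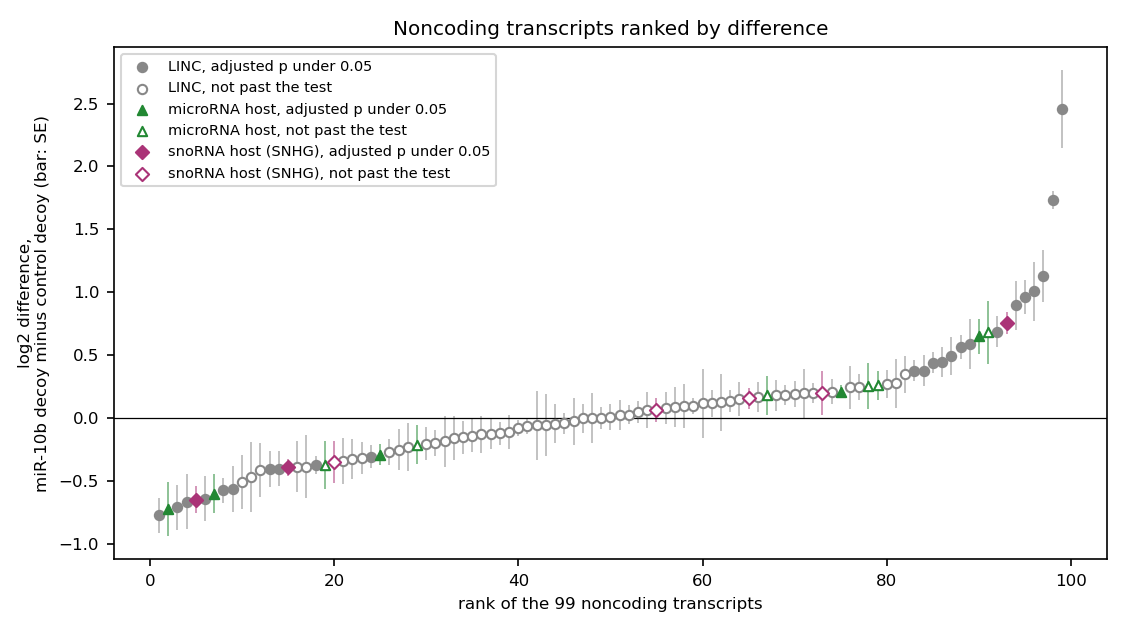
The 99 noncoding transcripts ranked by the log2 difference, miR-10b decoy minus control decoy (vertical axis, bar: SE), with LINC, microRNA host and snoRNA host transcripts marked by symbol shape and filled where the adjusted p was under 0.05. Most transcripts lay near 0, and the right end was held by LINC00304 at 2.46 and LINC00520 at 1.74.

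The arrays of both groups did not overlap for all 32 called transcripts and for 14 of the 67 that did not pass. In all, 25 transcripts had every miR-10b decoy array above every control array and 21 had every one below, beside 22.3% and 24.1% of all genes (46.4% in either direction). These counts include transcripts among the 15 that reached the level of 50 in 1 group only, whose direction was fixed on the deposited scale. Of the 84 transcripts at 50 or more in both groups, 20 lay above and 16 below. Without moderation of the gene variances 13 transcripts were higher and 8 lower, beside 20.4% of all genes called in either direction. For 65 of the 67 that did not pass, the 95% interval of the difference lay within 1 log2 unit of 0, and for 44 it lay within a 1.5-fold change. Between control arrays the coefficient of variation of a transcript was 10.6% at the median and ran from 1.28% to 48.6%.

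Of the 7 SNHG transcripts 1 rose, 2 fell and 4 did not pass (42.9% called, beside 33.9% of all genes). SNHG17, which holds the SNORA71 group of snoRNAs that guide pseudouridylation, rose. Its signal was 436, 453 and 479 with the control decoy and 761, 695 and 882 with the miR-10b decoy. The groups did not overlap, and the difference was 0.76 (SE 0.09, limma adjusted p = 7.1e-05). A second probe set of SNHG17 gave 0.87.

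SNHG18, the host of SNORD123, fell by 0.65 (SE 0.11, limma adjusted p = 0.00073). All 3 miR-10b decoy arrays (171, 181 and 143) were under the lowest control array (278, 258 and 249). SNHG19, the host of SNORD60, fell from a far brighter probe set. It read 1052, 1125 and 1153 with the control decoy and 833, 893 and 803 with the miR-10b decoy, a difference of -0.39 (SE 0.07, limma adjusted p = 0.00076). The name of this probe set ends in x, which marks probes that may also bind other transcripts. The calls of SNHG17 and SNHG18 held under all 18 alternative settings, and that of SNHG19 under the 17 that kept its probe set.

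The brightest of the 7 SNHG transcripts taken did not pass. SNHG32, which holds the C/D box snoRNAs SNORD48 and SNORD52, read 1394, 1186 and 1242 and then 1567, 1447 and 1256, so that the groups overlapped (0.16, SE 0.08, limma adjusted p = 0.18). Without miR-10b decoy replicate 3 it was 0.24 and passed (limma adjusted p = 0.036), as it did at 0.23 with arrays centred on their medians. SNHG33, with SNORA63D and SNORA63E inside, was at 357 ± 35.6 and 372 ± 22.5 (SD, n = 3 each, 0.06). A second probe set of SNHG33, with a mean signal of 230, gave 0.37. SNHG24 was at 177 ± 45.2 and 202 ± 38.3 (SD, n = 3 each, 0.20). When each array was left out in turn, SNHG24 ran from 0.02 (without control replicate 3) to 0.38 (without control replicate 1), and SNHG33 from -0.02 to 0.11. SNHG28 was the dimmest, at 60.0, 53.9 and 59.7 against 47.2, 42.6 and 41.5. Its groups did not overlap, but the difference of -0.35 missed the threshold (SE 0.17, limma adjusted p = 0.13). It passed without the intensity trend and without moderation of the variances. As SNHG28 reached the signal level for being taken only through its control arrays, its direction was fixed on the deposited scale. The lack of overlap, the p-value and the passing settings of SNHG28 are given with that limit.

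Many SNHG genes are known for a run of pyrimidines at the transcription start (the terminal oligopyrimidine motif of genes of the translation machinery), so the start windows are shown for the 6 SNHG transcripts with a RefSeq promoter. Each is 30 bases on the strand of the gene, with 15 bases before the annotated start, and the first 5 transcribed bases are in capitals. SNHG17 lies at chr20:38435314-38435343 (minus), SNHG18 at chr5:9546185-9546214 (plus), SNHG19 at chr16:2155344-2155373 (minus), SNHG32 at chr6:31834901-31834930 (plus), SNHG33 at chr3:183447593-183447622 (plus) and SNHG28 at chr1:159855023-159855052 (minus), all GRCh38.p14.
SNHG17: ttgtcgtgtggcctcAGTCCttcgccgtcc
SNHG18: ccgccgccgcgccgcCTCCTcctcctcctc
SNHG19: ctcgcccgcccctgtCTTTTcggggtcgag
SNHG32: ctcgccattttagttCTTTTtgcgaagtgg
SNHG33: gacaagaggcttttaCACCGaacggaggtg
SNHG28: acccgcccgcctgttGTTTTccacagagag
A C followed by 4 bases that are each C or T, exactly at the annotated start, was present in SNHG18, SNHG19 and SNHG32, which is 3 of 6. It was present in 4.04% of the 27305 promoters given there, and in 7 of the 72 promoters that could be matched to the 99 transcripts. SNHG18 and SNHG19 were lower and SNHG32 did not pass, and SNHG17, the riser, has no such run at its annotated start. A match is a description of the letters and no measured start.

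Among the 11 microRNA host transcripts 2 rose, 3 fell and 6 did not pass (45.5% called, beside 33.9% of all genes). MIR100HG was the brightest, at 2017, 2088 and 2145 with the control decoy and 2465, 2383 and 2382 with the miR-10b decoy. It holds the hairpins of miR-100, let-7a and miR-125b, and rose by the smallest step of all called transcripts, 0.21 (SE 0.05, limma adjusted p = 0.0055). It did not pass without the intensity trend, on the deposited values the difference was 0.06 and did not pass, and with the mean of all its probe sets it was -0.026, where the only other probe set had a mean signal of 11.1, under the filter level. MIR1915HG read 66.7, 67.7 and 88.1 and then 127, 114 and 118, a rise of 0.65 (SE 0.14, limma adjusted p = 0.0038). Its 2 other probe sets gave -0.17 and -0.22, so that this rise stands on 1 of 3 probe sets, and with the mean of all 3 it was 0.08.

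MIR210HG holds miR-210, a microRNA well known as a target of the hypoxia-inducible factors. The host transcript was lower with the miR-10b decoy. It read 250.004, 239.7 and 203 with the control decoy and 179, 163 and 85.8 with the miR-10b decoy, and miR-10b decoy replicate 3 was the lowest by far. The difference was -0.72 (SE 0.21, limma adjusted p = 0.021), and a second probe set gave -0.67. Without miR-10b decoy replicate 3 the difference was -0.41 and still passed, while without control replicate 1 or control replicate 2 it was -0.67 and -0.70 and did not (limma adjusted p = 0.064 and 0.062). The call was also lost with no filter, without the intensity trend and without moderation.

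The RefSeq promoter of MIR210HG (GRCh38.p14, chr11:568408-568707, minus strand, 250 bases before the start to 50 after it) is shown because both groups were kept in hypoxia and the core letters of the hypoxia response element, ACGTG, occur in it. The match is in capitals and begins 170 bases before the annotated start.
MIR210HG promoter: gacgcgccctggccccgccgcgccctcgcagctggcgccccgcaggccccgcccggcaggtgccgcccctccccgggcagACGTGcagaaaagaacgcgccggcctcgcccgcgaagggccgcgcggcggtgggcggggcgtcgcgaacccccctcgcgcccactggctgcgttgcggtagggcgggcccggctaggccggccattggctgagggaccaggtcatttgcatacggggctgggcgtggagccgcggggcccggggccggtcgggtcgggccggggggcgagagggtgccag
ACGTG on either strand was found in 21.6% of all 27305 promoters. It was in 4 of 12 promoters of transcripts that rose, 3 of 12 of those that fell and 7 of 48 of those that did not pass. The AP-1 letters TGANTCA on either strand, whose ends can overlap with ACGTG, were in 7.76% of all promoters, in 2 of 12 promoters of risers, 1 of 12 of fallers and 6 of 48 of the rest.

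MIR924HG, which lies over miR-924 and a copy of miR-5583, fell by 0.60 (SE 0.15, limma adjusted p = 0.010). Its control arrays were at 76.5, 97.3 and 78.4 and its miR-10b decoy arrays at 49.3, 55.6 and 53.4, and without control replicate 2 the difference was -0.50 and did not pass (limma adjusted p = 0.053). MIR3681HG was brighter, at 438, 440.4 and 486 against 376, 389 and 344, with no overlap. Its difference was -0.29 (SE 0.08, limma adjusted p = 0.016), and it was -0.24 and did not pass when either control replicate 3 (limma adjusted p = 0.062) or miR-10b decoy replicate 3 (limma adjusted p = 0.051) was left out. The call was also lost with arrays centred on their medians (-0.20), with the mean of all probe sets (-0.06) and without moderation.

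The hosts of the other let-7 and miR-99 copies did not pass. MIR99AHG, with miR-99a and let-7c inside, was at 73.5 ± 6.30 and 62.7 ± 8.94 (SD, n = 3 each), a difference of -0.21 (SE 0.16), and MIRLET7BHG was at 69.6 ± 2.19 and 86.3 ± 25.2 (SD, n = 3 each), a difference of 0.25 (SE 0.18). In both, arrays of the groups overlapped. With each array left out in turn MIRLET7BHG ran from 0.04 (without miR-10b decoy replicate 1) to 0.40 (without miR-10b decoy replicate 3), and MIR99AHG from -0.30 to -0.12. MIR3945HG came nearest to the threshold, with 46.8, 24.2 and 56.7 against 73.3, 59.0 and 75.9 and a difference of 0.68 (SE 0.25, limma adjusted p = 0.053). Without control replicate 3 it was 0.89 and passed (limma adjusted p = 0.021), and it also passed with arrays centred on their medians, an offset of 32 and the mean of all probe sets. As MIR3945HG reached the level of 50 only through the miR-10b decoy arrays, its direction was fixed on the deposited scale. Its p-values are given with that limit. MIR4435-2HG was at -0.37 (SE 0.19, limma adjusted p = 0.15) and was -0.60 without control replicate 3, where it passed (limma adjusted p = 0.011). MIR550A3HG (0.26, arrays not overlapping) and MIR646HG (0.18, arrays overlapping) did not pass.

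**Figure D2:**
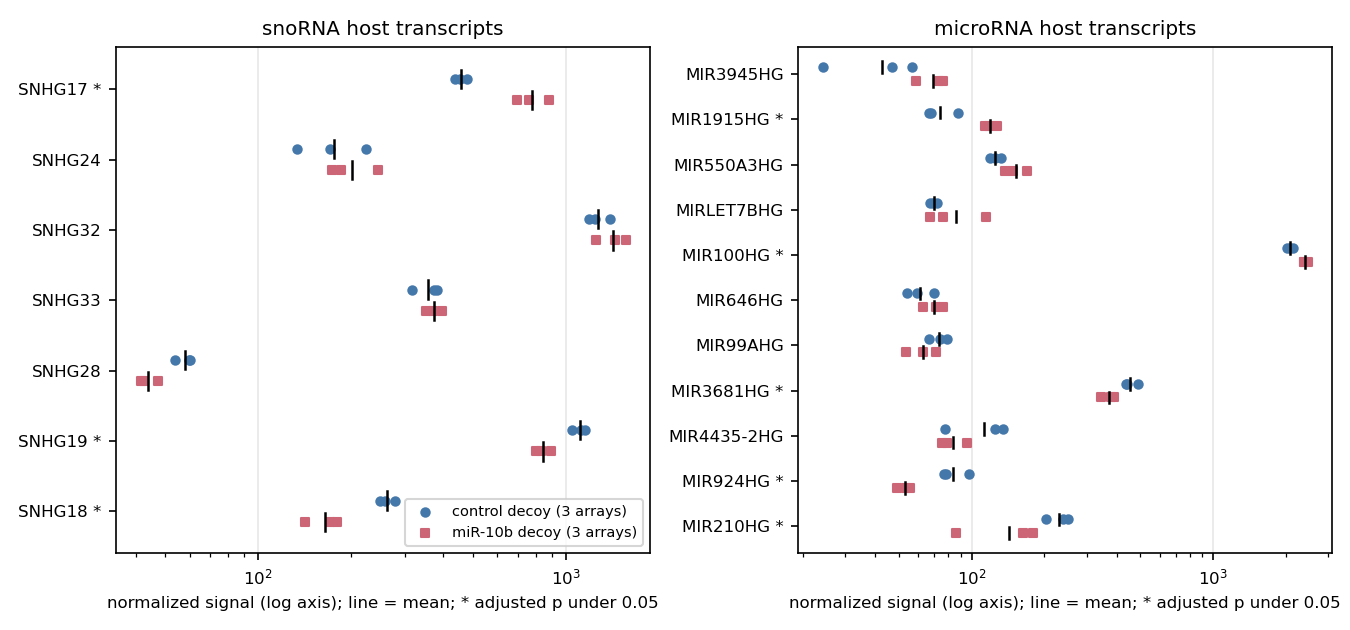
Normalized signal (log axis) of the 7 snoRNA host and 11 microRNA host transcripts on each of the 3 control decoy and 3 miR-10b decoy arrays, with the group mean as a line and an asterisk where the adjusted p was under 0.05. SNHG17 lies higher with the miR-10b decoy and SNHG18 and SNHG19 lower, and MIR100HG is the brightest microRNA host, with a small shift from 2083 to 2410.0.

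Of the 81 LINC transcripts 14 rose, 10 fell and 57 did not pass (29.6% called, beside 33.9% of all genes). LINC00304 had the largest rise of all 99. It was near the filter level with the control decoy, at 29.1, 20.2 and 41.7, and at 151, 136 and 344 with the miR-10b decoy. The difference was 2.46 (SE 0.31, limma adjusted p = 0.00011), and it ran from 2.05 to 2.70 when each array was left out in turn. As its level passed 50 only through the miR-10b decoy arrays, its place among the 99 depended on that group.

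LINC00520 was the brightest of the strong risers. The control arrays read 476, 422 and 476 and the miR-10b decoy arrays 1504, 1478 and 1639, so that the groups lay far apart and varied little. The difference was 1.74 (SE 0.07, limma adjusted p = 3.7e-08). Its probe set name ends in s, which marks probes shared by several transcripts.

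LINC03024 read 27.3, 44.5 and 55.1 and then 96.7, 99 and 96.8 (1.13, SE 0.21, limma adjusted p = 0.0014), and like LINC00304 it reached the level of 50 only through the miR-10b decoy arrays. LINC00942 read 41.5, 46.2 and 55.5 and then 147, 66.7 and 109 (1.01, SE 0.23, limma adjusted p = 0.0060). With LINC00304 and LINC00520 these were the 4 transcripts past a 2-fold rise. LINC01029 came next, at 98, 89.5 and 107 against 203, 165 and 229 (0.96, SE 0.13, limma adjusted p = 0.00022). LINC00963, read by a probe set of the x kind, was at 44.1, 60.2 and 33.2 against 90.9, 82.3 and 94.8 (0.90, SE 0.19, limma adjusted p = 0.0039). It also reached the level of 50 only through the miR-10b decoy arrays. The calls of LINC03024, LINC00942 and LINC00963 were lost when gene variances were not moderated, and those of LINC00304, LINC00520 and LINC01029 were not lost in any setting that kept their probe sets.

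The other LINC rises were smaller. LINC00622 went from 116 ± 10.6 to 191 ± 26.1 (SD, n = 3 each, 0.68), LINC01003 from 194 ± 19.1 to 289.7 ± 10.4 (SD, n = 3 each, 0.57) and LINC00513 from 268 ± 11.6 to 366 ± 13.1 (SD, n = 3 each, 0.44). LINC00847 went from 100.4 ± 11.3 to 139 ± 3.58 (SD, n = 3 each, 0.44). Limma adjusted p-values of these 4 were 0.0013, 0.00091, 0.0014 and 0.014. The rises of LINC00260 (0.59, from 46.7 to 71.9) and LINC00944 (0.50, from 72.6 to 105) were near the threshold, with limma adjusted p = 0.039 and 0.025. LINC00260 did not pass in 5 of the 6 fits that left out an array (limma adjusted p = 0.080 to 0.12; it passed without control replicate 1), and LINC00944 did not pass without control replicate 1, miR-10b decoy replicate 1 or miR-10b decoy replicate 3 (limma adjusted p = 0.088, 0.094 and 0.070). Both calls were also lost on the deposited values, with no filter, with the mean of all probe sets and without moderation. That of LINC00260 was lost with a common trimmed mean and without the intensity trend too. The 2 remaining rises, LINC02035 at 0.38 and LINC01128 at 0.38, fell outside the rule for names and were named after their values were seen. LINC02035 did not pass without control replicate 1, control replicate 2, miR-10b decoy replicate 1 or miR-10b decoy replicate 3. Its call was also lost on the deposited values, with no filter and without moderation. That of LINC01128 was lost on the deposited values and with the mean of all probe sets. Further probe sets of LINC01128 above the filter level gave -0.12, -0.05, 0.09 and 0.47.

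The largest fall among all 99 was that of LINC00957. It read 199, 153 and 175 with the control decoy and 118, 96.6 and 86.0 with the miR-10b decoy, a difference of -0.77 (SE 0.14, limma adjusted p = 0.0013). LINC02482 had a steady control signal of 223, 231 and 222 and fell to 166, 145 and 137 (-0.58, SE 0.10, limma adjusted p = 0.0011). LINC00621 was the brightest LINC faller, at 729, 786 and 811 against 571, 616 and 601 (-0.38, SE 0.07, limma adjusted p = 0.0015), from a probe set of the x kind. The calls of LINC02482 and LINC00621 held in every setting that kept their probe sets, and that of LINC00957 was lost only with the mean of all its probe sets, where the difference was -0.30.

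LINC01089 read 167, 125 and 165 and then 115, 93.4 and 66.8 (-0.71, SE 0.18, limma adjusted p = 0.0099), a call that was lost without the intensity trend and without moderation. LINC02984 went from 68.1 ± 8.06 to 41.3 ± 6.84 (SD, n = 3 each, -0.64) and LINC00663 from 61.8 ± 4.99 to 39.7 ± 6.69 (SD, n = 3 each, -0.57). LINC01210 read 94.9, 98.9 and 107 and then 37.8, 70.3 and 81.9, with miR-10b decoy replicate 1 far below the others. Its difference of -0.67 (SE 0.22, limma adjusted p = 0.035) was -0.37 without that array and did not pass (limma adjusted p = 0.090). The falls of LINC00460 (-0.31, from 255 to 205), LINC00342 (-0.40, from 148 to 109) and LINC02256 (-0.40, from 133 to 99.9) had limma adjusted p = 0.021, 0.043 and 0.049. All 3 calls were lost with arrays centred on their medians (-0.22, -0.33 and -0.34) and with the mean of all probe sets (-0.12, -0.25 and -0.40), and those of LINC00342 and LINC02256 also with no filter, without the intensity trend and without moderation. LINC01210 was lost in the last 3 settings too, LINC02984 with no filter and without moderation, and LINC00663 in both of these and with the mean of all probe sets (-0.16).

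Several of these falls did not pass when an array was left out. LINC01210 also lost its call without any 1 of the control arrays. LINC00663 passed only without miR-10b decoy replicate 1 among the 6 fits with an array left out, and LINC02256 only without miR-10b decoy replicate 3, with a difference of -0.26 without miR-10b decoy replicate 2. LINC02984 did not pass without control replicate 1, control replicate 3 or miR-10b decoy replicate 2 (limma adjusted p = 0.062, 0.054 and 0.064). LINC00460 did not pass without control replicate 2, control replicate 3 or miR-10b decoy replicate 3 (limma adjusted p = 0.051, 0.061 and 0.062). LINC00342 kept its call only in the fits that left out control replicate 2 or miR-10b decoy replicate 1.

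**Figure D3:**
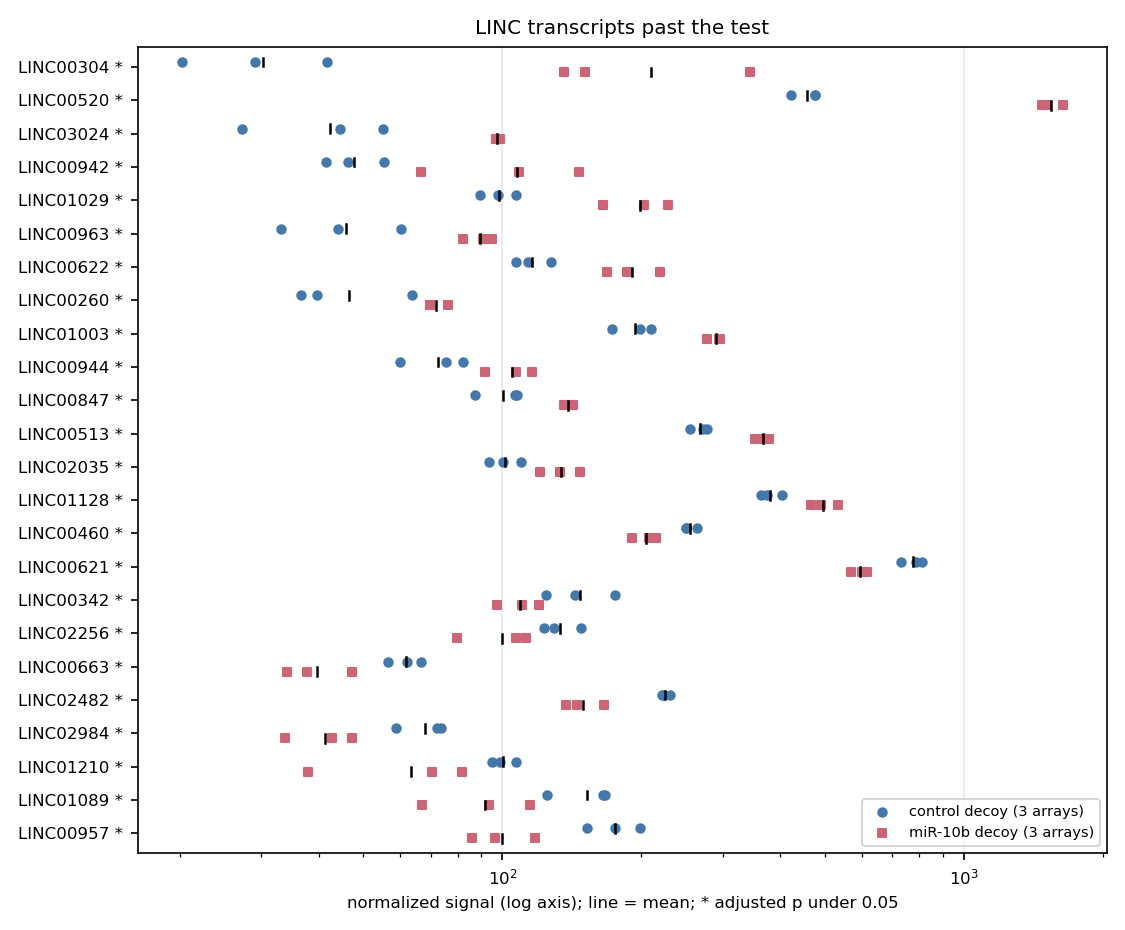
Normalized signal (log axis) of the 24 LINC transcripts past the test on each of the 3 control decoy and 3 miR-10b decoy arrays, ordered by the log2 difference, with the group mean as a line. LINC00304 and LINC00520 at the top are set apart the most, and several fallers at the bottom, such as LINC01210, have a single low miR-10b decoy array.

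Of the 5 brightest LINC transcripts, LINC00973, LINC01116 and LINC00922 did not pass the test. LINC00973, the brightest of all 99, read 2299, 2600.1 and 2405 with the control decoy and 2569.9, 2456 and 2784 with the miR-10b decoy, and the groups overlapped (0.10, 95% interval -0.04 to 0.23). LINC01116 was at 1314 ± 65.0 and 1241 ± 67.2 (SD, n = 3 each, -0.08, 95% interval -0.22 to 0.06) and LINC00922 at 783 ± 38.8 and 749 ± 11.1 (SD, n = 3 each, -0.06, 95% interval -0.20 to 0.08). LINC00520, which rose (1.74), and LINC00621, which fell (-0.38), complete the 5 brightest. The 57 LINC transcripts that did not pass lay between -0.51 and 0.35, and 19 of them lay within 0.1 of 0.

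Mean signals of the 99 had a median of 124, beside 206 for all genes tested. A mean of 100 or more was seen for 58 and of 500 or more for 10. Just inside the level of 50 lay LINC01016 (50.5), LINC01231 (50.5) and SNHG28 (51.2), with differences of -0.47, 0.12 and -0.35. Just outside lay LINC01279 (49.6), LINC00092 (48.5) and LINC02535 (48.3), with differences of 0.23, 0.02 and 0.38. Of the 171 transcripts of the same names between the filter level and 50, 7 were called (4.09%), 4 higher and 3 lower, beside 278 of 3072 other genes in that range (9.05%). Among the 99, 22 of 58 with a mean of 100 or more were called (37.9%) and 10 of 41 with a lower mean (24.4%), beside 33.9% of all genes.

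**Figure D4:**
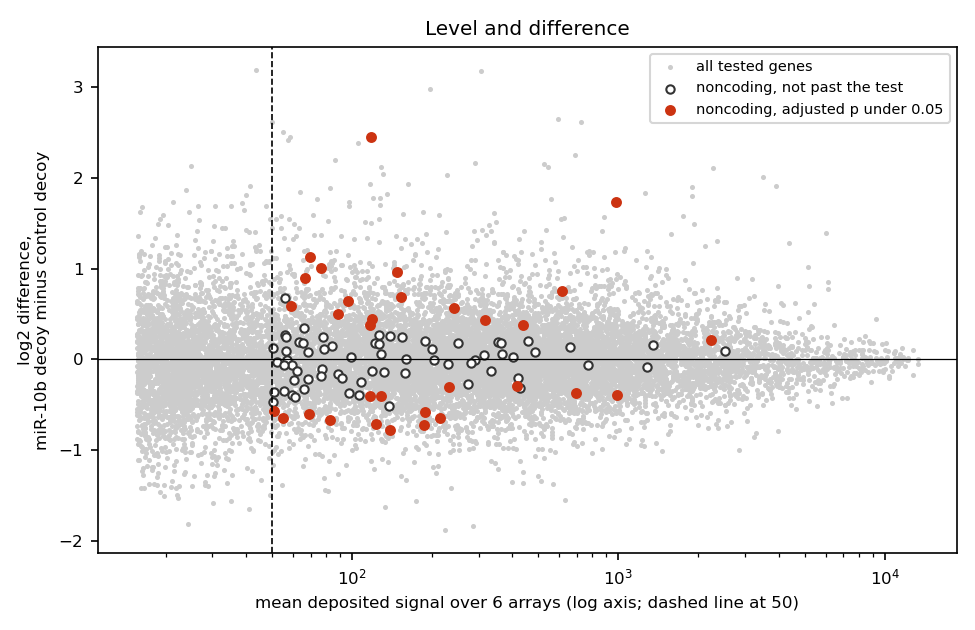
Log2 difference, miR-10b decoy minus control decoy, against the mean deposited signal over 6 arrays (log axis) for all 13842 tested genes (grey) and the 99 noncoding transcripts (open: not past the test; filled: adjusted p under 0.05), with a dashed line at 50. The noncoding transcripts lie within the cloud of all genes, apart from LINC00304 and LINC00520 near its upper edge.

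Further probe sets of the same symbol give a second reading of a transcript. Of the 32 called transcripts 13 had further probe sets above the filter level, 19 in all, of which 12 had the sign of the first and 7 the opposite one. For 8 of the 13 transcripts all of them had the same sign. Among transcripts that did not pass, 24 had 36 further probe sets, 22 of the same sign and 14 of the opposite one. LINC00304, LINC00963 and SNHG17 were among those with a further probe set of the same sign, and LINC01128, LINC00944 and MIR1915HG among those whose probe sets differed in sign. Probe sets of 1 symbol can lie in different exons or introns, and their positions were not used here.

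**Figure D5:**
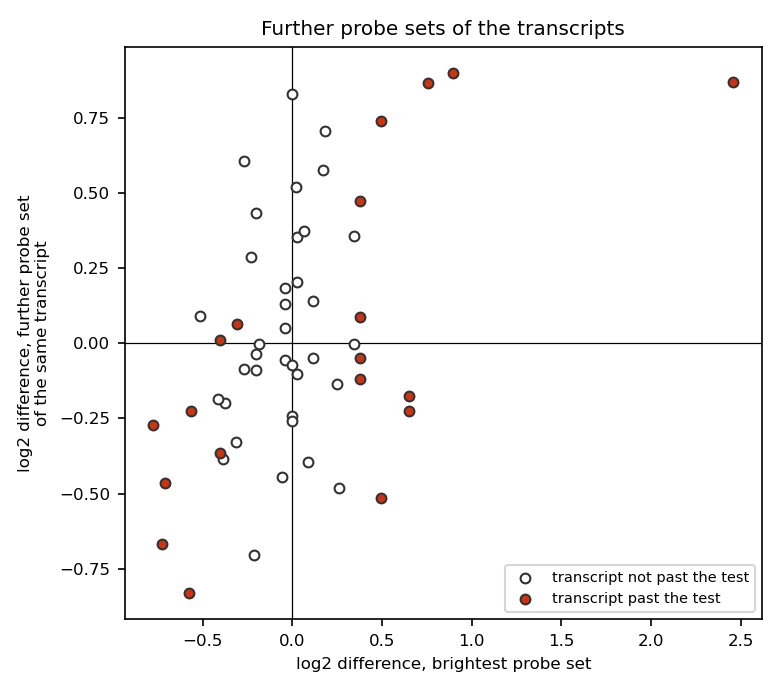
Log2 difference of each further probe set above the filter level (vertical axis) against that of the brightest probe set of the same transcript (horizontal axis), filled for transcripts past the test. Points in the upper right and lower left have the same sign in both, which was so for 12 of 19 filled points and 22 of 36 open points.

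By the gene order of RefSeq, 95 of the 99 had a measured neighbour, the nearest tested gene on each side. Of 64 neighbours of called transcripts 19 were called too (29.7%), 11 in the same direction and 8 in the opposite one, and of 125 neighbours of transcripts that did not pass 43 were called (34.4%), beside 33.9% of all genes. SNHG18 and SEMA5A, a semaphorin of axon guidance, both fell (SEMA5A from 452 ± 37.2 to 263 ± 29.4, SD, n = 3 each, -0.77). SNHG19 and RAB26, a small GTPase of vesicle traffic, both fell (RAB26 from 127 ± 18.7 to 48.5 ± 7.18, SD, n = 3 each, -1.27). LINC00520 has PELI2 on one side, which rose (0.74), and KTN1 on the other, which fell (-0.29), both far less than LINC00520 itself.

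LINC00847 and its neighbour HEIH, another long noncoding RNA, both rose (HEIH 0.61), as did LINC00513 and LINC-PINT (0.25). LINC03024 has the sialyltransferase gene ST3GAL1 on one side, which rose (0.46), and on the other LOC101927798, a noncoding transcript whose 3 control arrays were under the filter level and which was at least 5.54-fold higher against that level. The neighbours of LINC00304 (ACSF3 and CDH15), SNHG17 (LBP and RALGAPB), MIR210HG (RASSF7 and PHRF1) and MIR100HG (SORL1 and BLID) did not pass. These pairs were chosen after their values were seen.

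Related genes were read from lists for comparison. Listed genes without a probe set of their own above the filter level were not tested. Of 21 tested protein-coding hosts of snoRNAs (42 listed) 6 rose and 2 fell (38.1% called, beside 33.9% of all genes), with a median of -0.01, and on the deposited values 2 rose and 1 fell. There was 1 fall without control replicate 1, control replicate 2, miR-10b decoy replicate 1 or miR-10b decoy replicate 2, and 0 with the mean of all probe sets. Some ribosomal protein genes were read by dim probe sets. RPLP2 was at 43.5 and 40.5 and RPL27A at 168 and 163 (control decoy and miR-10b decoy means), beside 11665 and 11332 for RPS12. EIF5, a translation initiation factor, rose from 3242 ± 19.7 to 4308 ± 66.6 (SD, n = 3 each, 0.41), RABGGTB, a subunit of the Rab geranylgeranyl transferase, rose by 0.52 and HSPA9, the mitochondrial Hsp70, by 0.41. Of 32 tested protein-coding hosts of microRNAs (37 listed) 5 rose and 7 fell (37.5% called), with a median of -0.00024. On the deposited values 2 rose and 6 fell, 3 rose and 4 fell with the mean of all probe sets and without the intensity trend, and 2 rose without control replicate 1, control replicate 2 or miR-10b decoy replicate 1. MEST, an imprinted gene, fell from 1143 ± 30.7 to 574 ± 45.9 (SD, n = 3 each, -0.99), EVL, an actin regulator, was at -0.94 and SMC4, a condensin subunit, at -0.34, both past the test.

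None of the 6 tested proteins of the snoRNA particles (8 listed) passed in the limma fit, where 2 had an unadjusted p under 0.05, and their median was -0.04. NHP2 was at -0.13, SNU13 at 0.26 and NOP10 at -0.06. With arrays centred on their medians 1 of them passed as higher, and with a common trimmed mean 1 passed as lower. Of 6 tested factors of nonsense-mediated decay (10 listed), the pathway that degrades many SNHG transcripts after splicing, 1 rose, with a median of 0.05. It was SMG6, the endonuclease of the pathway (1.14, from 19.9 ± 8.92 to 52.1 ± 18, SD, n = 3 each), whose control level was near the filter level. SMG6 did not pass without control replicate 1, miR-10b decoy replicate 1 or miR-10b decoy replicate 2, nor in the fits without the trend or moderation. Its call was also lost with the mean of all probe sets, where the median of the list was 0.00047. SMG9 (0.19) and SMG5 (-0.09) did not pass.

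Among 19 tested long noncoding RNAs with other names (23 listed) 7 rose and 3 fell (52.6% called, beside 33.9% of all genes), with a median of 0.06. With the mean of all probe sets 3 rose and 1 fell, and 1 fell without control replicate 2, miR-10b decoy replicate 2 or miR-10b decoy replicate 3. The median was -0.0040 without control replicate 2 and -0.08 on the deposited values. ZFAS1 rose from 4540.0 ± 122 to 7790.5 ± 110.4 (SD, n = 3 each, 0.78), read by a probe set of the x kind. OIP5-AS1 rose from 571 ± 6.15 to 1084 ± 17.2 (SD, n = 3 each, 0.92) and EPB41L4A-AS1 from 500.04 ± 39.7 to 687 ± 54.7 (SD, n = 3 each, 0.45). The 3 falls were those of CRNDE (-0.29), KCNQ1OT1 (-0.55) and DANCR (-0.19), and GAS5 did not pass (0.24, arrays overlapping). The lists were not tested as sets.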

How the data were processed

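RNA of 3 control decoy and 3 miR-10b decoy samples was labelled from 0.25 µg and read on Affymetrix arrays. The deposited values are linear signal intensities of 54675 probe sets, made with MAS5 per the submitters' processing notes; its scaling target is not given in the sources used here. No detection calls were used. The platform annotation gave 1 symbol for 41097 probe sets, several for 1801 and none for 11777, and 62 control probe sets were left out. The 106 probe sets with several symbols that included a matching one, an SNHG symbol in 31 of them, were not taken. By gene ID, 95 of the 99 transcripts were matched to RefSeq (GRCh38.p14).

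Intensities + 7 were turned to log2 and quantile-normalized, and the brightest probe set stood for each gene. Genes whose mean signal was under the 30th percentile (15.6) were left out. The 13842 others were fitted with limma 3.58.1 (R 4.3.3, lmFit and eBayes with intensity trend, two-sided, Benjamini-Hochberg). Printed signals are back-transformed, and fold changes of dim genes are understated. The 6 arrays limit the precision. On simulated data of this comparison (13842 genes, 200 changed) 48.2%, 72.6% and 87.8% of 1.5-, 2- and 3-fold changes were recovered, and 5.56% of calls were false. The simulation changed a far smaller share of genes than the 33.9% called here, and the adjustment depends on that share. These rates therefore cannot be read as the recovery in the data.

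Transcripts and lists were chosen with earlier results of these data known. Named were all SNHG and microRNA hosts, the 12 largest LINC rises and falls past the threshold, the 5 brightest LINC, the 3 transcripts on each side of a signal of 50, and the 3 smallest p-values of each list. Alternatives changed the scaling, offset, filter, probe set, variance model, replicate block, level and arrays used.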

Additional observations from a re-analysis of the deposited data

How the results depend on the processing

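Against 17 higher and 15 lower transcripts, 11 were higher on the deposited values and 11 with a level of 100, and 9 were lower with no filter, 9 with the mean of all probe sets and 8 without moderation of variances. Over all genes, 2293 higher and 2399 lower became 1094 higher on the deposited values, 1462 higher and 1575 lower with the mean of probe sets, and 1449 higher and 1377 lower without moderation. Leaving out each array gave 14 to 17 higher and 10 to 15 lower transcripts, and 1871 to 2146 higher and 1837 to 2144 lower genes. MIR100HG reversed to -0.026 with the mean of its probe sets (limma adjusted p = 0.90), which adds a probe set under the filter level. With the replicate block 18 transcripts were higher and 17 lower, including all 32 main calls. Deviations of same-numbered arrays correlated at 0.03, -0.03 and -0.01, and whether the numbers mark a pairing is not stated in the labels. A filter at the 50th percentile left 75 transcripts and leaving out x and s probe sets left 88. Fewer calls were made at low signal, 7 of 171 transcripts of these names and 278 of 3072 other genes between the filter level and 50, and the cause was not tested.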
